A study of Mus musculus with 786 samples.

Results

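Mast cell and basophil genes were followed through sorted stem and precursor populations from the bone marrow of mice. The set has 8 genes, matched by symbol in every expression table: Cpa3, Hdc, Mcpt8, Prss34, Gzmb, Tpsb2, Fcer1a and Ms4a2. All 8 were found among the 18855 genes of the bulk table and the 21664 genes of the single-cell tables. They are listed for what they encode, by a rule that holds no measured value, although earlier results of these data were known when the list was made.

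The study asked how early blood precursors differ from each other and from cell to cell, with bone marrow of C57BL6 mice aged 6 to 8 weeks. It holds 18 bulk libraries of 1000 sorted cells each, with 1 library per population, and 672 single-cell wells from 7 plates of 96 wells. Single cells were multipotent precursors 1 (MPP1: CD48-, CD150+, CD135-, CD34+) and haematopoietic stem cells (HSC: the same markers but CD34-). They came from bled mice (1 plate each of MPP1 and HSC) and from normal mice (MPP1 plates 1 and 2, HSC plates 1, 2 and 3). The growth note of HSC plate 3 names normal and bled mice together, and the labels do not say whether a plate or a bulk library pools several mice, or how the mice were bled.

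The bulk gates with the most member genes were Mature Meg (mature megakaryocytes: Lin-, c-Kit-, Sca1-, CD41+), GMP-7 (granulocyte-macrophage progenitors: Lin-, IL7R-, c-Kit+, Sca1-, CD16/32+, CD34+), GMP-11 (the same lineage, gated as c-Kit+, Sca1-, CD41-, CD150-, CD16/32+), MPP3 (CD48+, CD150-, CD135-, CD34+) and CLP Sca1 high (common lymphoid progenitors: CD135+, IL7R+, c-Kit+, Sca1 high). The others used here were CMP (common myeloid progenitors: IL7R-, c-Kit+, Sca1-, CD16/32 low or negative, CD34+), MPP2 (CD48+, CD150+, CD135-, CD34+), MPP4 (as MPP3 but CD135+), CLP (Sca1+), preGM, preMegE, PreCFU-E, CFU-E and ProEry (c-Kit+, Sca1-, CD41- gates split by CD16/32, CD150, CD105, Ter119 and CD71 as the labels give them), MEP (IL7R-, c-Kit+, Sca1-, CD16/32-, CD34-), MKP (c-Kit+, Sca1-, CD41+, CD150+), MPP1 and HSC. The label of the bulk HSC library gives CD34+, as for MPP1, while Cd34 was at 1785.5 FPKM in bulk MPP1 and 25.2 FPKM in bulk HSC.

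Mast cells and basophils are granulated cells that carry the high-affinity receptor for immunoglobulin E and release histamine and proteases when it is cross-linked. Basophils finish their development in the marrow, while mast cells leave it as progenitors and mature in tissues. Both arise from myeloid progenitors, and the transcription factor Gata2 is needed for both lineages in mice, although Gata2 is also made by stem cells and by megakaryocyte and erythroid precursors.

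The members fall into 3 roles. Cpa3 (mast cell carboxypeptidase A), Mcpt8 and Prss34 (basophil proteases of mice), Gzmb (granzyme B, best known from cytotoxic lymphocytes) and Tpsb2 (a mast cell tryptase) are granule proteases. Hdc (histidine decarboxylase) makes histamine. Fcer1a and Ms4a2 encode the alpha and beta chains of the immunoglobulin E receptor.

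The promoters of 5 members are shown because their genes reached the highest levels in bulk. Each is the 250 bases before the start of the gene, from RefSeq on GRCm38.p6, written 5′ to 3′ on the gene's strand. Capitals mark the GATA motif, searched on both strands as AGATAA or TGATAA and as AGATAG or TGATAG. Prss34 lies on chr17:25298144-25298393 (+), Hdc on chr2:126618679-126618928 (-), Mcpt8 on chr14:56085198-56085447 (-), Cpa3 on chr3:20242182-20242431 (-) and Gzmb on chr14:56262335-56262584 (-).
Prss34: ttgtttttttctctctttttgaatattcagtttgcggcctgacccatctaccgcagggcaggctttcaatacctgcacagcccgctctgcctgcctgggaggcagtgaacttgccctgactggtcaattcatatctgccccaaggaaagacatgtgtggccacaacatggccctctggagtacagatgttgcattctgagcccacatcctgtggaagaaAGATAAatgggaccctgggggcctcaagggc
Hdc: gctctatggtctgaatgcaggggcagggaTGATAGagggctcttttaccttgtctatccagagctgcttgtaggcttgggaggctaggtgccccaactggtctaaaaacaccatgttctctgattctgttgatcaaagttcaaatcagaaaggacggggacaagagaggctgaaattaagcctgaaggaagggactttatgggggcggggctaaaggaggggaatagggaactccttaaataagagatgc
Mcpt8: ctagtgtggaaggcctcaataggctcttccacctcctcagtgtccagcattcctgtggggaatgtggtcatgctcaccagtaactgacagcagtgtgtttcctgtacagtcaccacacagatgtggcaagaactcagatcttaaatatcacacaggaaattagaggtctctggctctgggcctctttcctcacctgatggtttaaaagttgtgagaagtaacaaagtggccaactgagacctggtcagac
Cpa3: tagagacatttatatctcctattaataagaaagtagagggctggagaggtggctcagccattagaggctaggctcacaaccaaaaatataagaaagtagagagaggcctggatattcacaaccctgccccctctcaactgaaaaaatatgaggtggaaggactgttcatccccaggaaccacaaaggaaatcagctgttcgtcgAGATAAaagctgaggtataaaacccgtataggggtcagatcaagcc
Gzmb: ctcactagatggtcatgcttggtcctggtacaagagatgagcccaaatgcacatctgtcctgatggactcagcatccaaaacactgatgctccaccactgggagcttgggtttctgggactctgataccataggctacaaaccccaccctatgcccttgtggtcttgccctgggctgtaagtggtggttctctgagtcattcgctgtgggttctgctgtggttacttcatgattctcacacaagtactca
A GATA motif stood in 5 of the 7 member promoters that RefSeq gave, against 26.5% of 32851 mouse promoters of the same length. Cpa3 had 1, starting 46 bases before the gene, Prss34 had 1 at 31 bases, Hdc had 1 at 221 bases, Fcer1a had 1 at 92 bases and Ms4a2 had 3 at 224, 37 and 11 bases. Mcpt8 and Gzmb had none in this window. The letters TTCNNNGAA, a STAT-type motif, stood in 0 of the 7 member promoters and in 7.02% of all promoters, and TTGCNNAA, a C/EBP-type motif, stood in 1 of the 7, that of Fcer1a, and in 9.56% of all. No binding was measured, so these matches describe sequence alone.

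Levels are FPKM, fragments per kilobase of transcript scaled to the library's mapped fragments, so that genes of different length can be set side by side. A gene was counted as detected at FPKM 1 or more. With 1 library per population there was no replicate check of any bulk difference, and no bulk p-value was computed. The Mature Meg library stood apart: 1642 genes reached FPKM 1 there, or 8.71% of all genes, against 2866 to 6080 in the other 17 libraries. Of 8 housekeeping genes looked up after the values were seen, 4 (Hprt1, Pgk1, Rps18 and Tbp) were listed at 0 in Mature Meg and none in the other 17 libraries, so a 0 is given below only as listed at 0. The main counts of member pairs and the Pearson r values that rest on Mature Meg are given with and without it.

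Over the 18 populations, 25 of 144 pairs of member and population were detected, or 17.4%, against 22.3% of all gene and population pairs. The members were therefore detected no more often than genes in general, but their detections lay in few gates. In Mature Meg 5 of 8 members were detected, against 8.71% of all genes, and in GMP-7 6 of 8, against 32.2% of all genes. MPP3 (19.3% of all genes), GMP-11 (29.8%) and CLP Sca1 high (19.2%) each had 3 members, and CMP had 2 (30.6%). MPP2 (20.3%), MKP (22.4%) and CFU-E (24.3%) had 1 member each, and 9 populations had none. In MPP1, CLP, MEP, PreCFU-E and ProEry all 8 members were listed at 0. Without Mature Meg, 20 detected pairs remained, and without GMP-7 there were 19. In a bulk library, fewer cells of a type and less RNA per cell cannot be told apart.

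**Figure D1:**
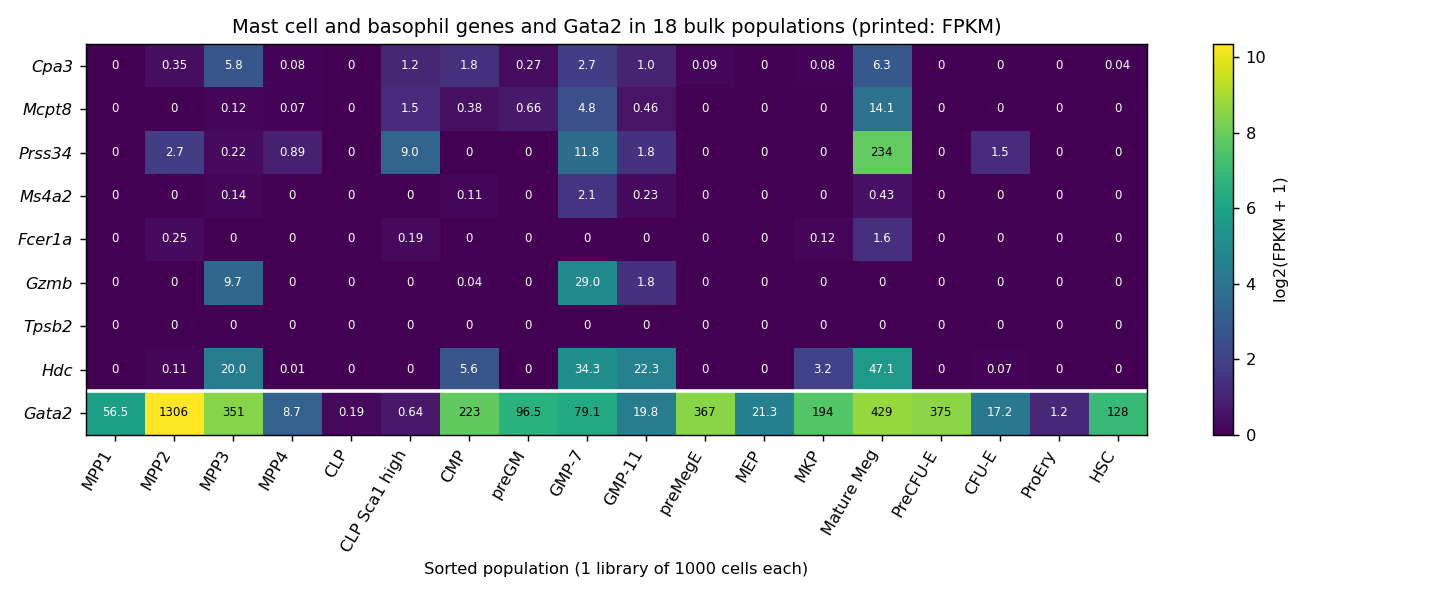
Heat map of the 8 member genes and Gata2 (rows) in 18 bulk populations (columns, 1 library of 1000 cells each, with HSC at the right). Colour gives log2(FPKM + 1) and the printed figure is the FPKM; the members' bright cells lie in Mature Meg, GMP-7, GMP-11, MPP3 and CLP Sca1 high, while Gata2 is bright in many more gates.

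Prss34, also called mast cell protease 11 and a basophil gene in mice, had the highest level of any member. It stood at 234 FPKM in Mature Meg, 11.8 in GMP-7, 9.01 in CLP Sca1 high, 2.70 in MPP2, 1.79 in GMP-11 and 1.49 in CFU-E, at 0.886 in MPP4 and 0.222 in MPP3, and was listed at 0 in the other 10 populations. Its level in Mature Meg was 19.9 times that in GMP-7, and 106 genes of that library stood above it. Without Mature Meg, GMP-7 and CLP Sca1 high were the highest gates for Prss34.

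Mcpt8, the basophil marker protease of mice, had 14.1 FPKM in Mature Meg, 4.82 in GMP-7 and 1.46 in CLP Sca1 high. Below detection it had 0.661 in preGM, 0.458 in GMP-11, 0.379 in CMP, 0.124 in MPP3 and 0.0674 in MPP4, and it was listed at 0 in 10 populations. The first 3 gates of Mcpt8 and of Prss34 came in the same order. Over the 18 populations log2(FPKM + 1) of both genes had a Pearson r of 0.92, and 0.79 over the 17 without Mature Meg. These r values share 1 library per point and many points where both genes are at 0, and describe these libraries only.

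Cpa3, which trims peptides in mast cell granules, was spread over more gates. It had 6.27 FPKM in Mature Meg, 5.83 in MPP3, 2.74 in GMP-7, 1.78 in CMP and 1.16 in CLP Sca1 high. In GMP-11 it stood at 0.982, in MPP2 at 0.353, in preGM at 0.271, in preMegE at 0.0912, in MPP4 at 0.0811, in MKP at 0.0755 and in HSC at 0.0374, and it was listed at 0 in 6 populations. Mature Meg and MPP3 differed by 1.07 times for Cpa3, a difference that has no replicate error to be set against. Cpa3 was the only member above 0 in bulk HSC.

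Gzmb, a serine protease of cytotoxic granules, followed another order. It had 29.0 FPKM in GMP-7, 9.66 in MPP3 and 1.81 in GMP-11, stood at 0.0358 in CMP, and was listed at 0 in the other 14 populations, Mature Meg included. Gzmb was thus the member with the highest level in GMP-7 after Hdc, and was listed at 0 in the gate where Prss34 and Mcpt8 peaked. Tpsb2, the tryptase, was listed at 0 in all 18 libraries. Tpsb2 has a near-identical neighbour, Tpsab1, and reads that fit both could have been split or dropped by the authors' counting, so the 0 is uncertain; Tpsab1 was listed at 0 as well.

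Hdc, the enzyme of histamine synthesis, was detected in the same number of gates as Prss34, 6, but at more even levels. It had 47.1 FPKM in Mature Meg, 34.3 in GMP-7, 22.3 in GMP-11, 20.0 in MPP3, 5.57 in CMP and 3.18 in MKP. Its remaining values above 0 were 0.111 in MPP2, 0.0732 in CFU-E and 0.00898 in MPP4. Hdc was the highest member in GMP-7, GMP-11, MPP3, CMP and MKP.

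The receptor chains were low. Ms4a2, the beta chain, had 2.06 FPKM in GMP-7 and stayed under FPKM 1 in Mature Meg (0.428), GMP-11 (0.231), MPP3 (0.142) and CMP (0.114). Fcer1a, the alpha chain that binds immunoglobulin E, had 1.63 FPKM in Mature Meg, 0.248 in MPP2, 0.189 in CLP Sca1 high and 0.123 in MKP. No library had both chains detected: Ms4a2 was at 2.06 FPKM where Fcer1a was listed at 0, in GMP-7, and Fcer1a was at 1.63 FPKM where Ms4a2 was at 0.428 FPKM, in Mature Meg.

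Set against bulk HSC, 15 of 136 pairs of member and population were higher by at least 2 on the log2(FPKM + 1) scale, or 11.0%, against 9.54% of all gene and population pairs. Mature Meg held 4 of them (Prss34, Hdc, Mcpt8 and Cpa3), against 3.4% of all genes, and GMP-7 held 4 (Hdc, Gzmb, Prss34 and Mcpt8), against 14.7% of all genes. MPP3 held 3 (Hdc, Gzmb and Cpa3), against 7.93% of all genes, and 1 each was held by GMP-11 (Hdc, against 13.6% of all genes), CMP (Hdc, 12.7%), MKP (Hdc, 9.39%) and CLP Sca1 high (Prss34, 7.02%). Cpa3 had 6.27 FPKM in Mature Meg against 0.0374 FPKM in HSC, a difference of 2.81 on that scale, and 5.83 FPKM in MPP3, a difference of 2.72. The other members were listed at 0 in bulk HSC, so no fold is given for them. All 17 differences share the HSC library. Without Mature Meg 11 of the 15 pairs remained, and without GMP-7 there were also 11. The share over all genes was not computed for these 2 counts, so an excess of members over genes in general is not shown. The count of pairs depended on the scale: it was 31 with a pseudocount of 0.1, or 22.8% against 17.3% of all gene and population pairs, and 28 with every library rescaled to the same total, or 20.6% against 15.8%.

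Gates rich in Gata2 were not the same as gates rich in the members. MPP2 had the highest Gata2 level, 1306 FPKM, and a summed level of the 8 members of 3.42 FPKM, of which Prss34 made up 2.70 FPKM. PreCFU-E with 375 FPKM of Gata2 and preMegE with 367 FPKM had member sums of 0 and 0.0912 FPKM. Mature Meg with 429 FPKM of Gata2 had a sum of 304 FPKM, MPP3 with 351 FPKM had 36.0, CMP with 223 FPKM had 7.88 and MKP with 194 FPKM had 3.38. GMP-7 was at rank 10 in Gata2 with 79.1 FPKM and at rank 2 in the members with 84.7 FPKM, GMP-11 had 19.8 FPKM of Gata2 and 27.6 FPKM of members, and CLP Sca1 high had 0.635 FPKM of Gata2 and 11.8 FPKM of members. HSC itself had 128 FPKM of Gata2 and 0.0374 FPKM of members. For the 7 members above 0, the Pearson r with Gata2 over the 18 populations on the log2(FPKM + 1) scale lay between 0.11 (Prss34) and 0.32 (Hdc), and between -0.17 and 0.23 without Mature Meg.

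**Figure D2:**
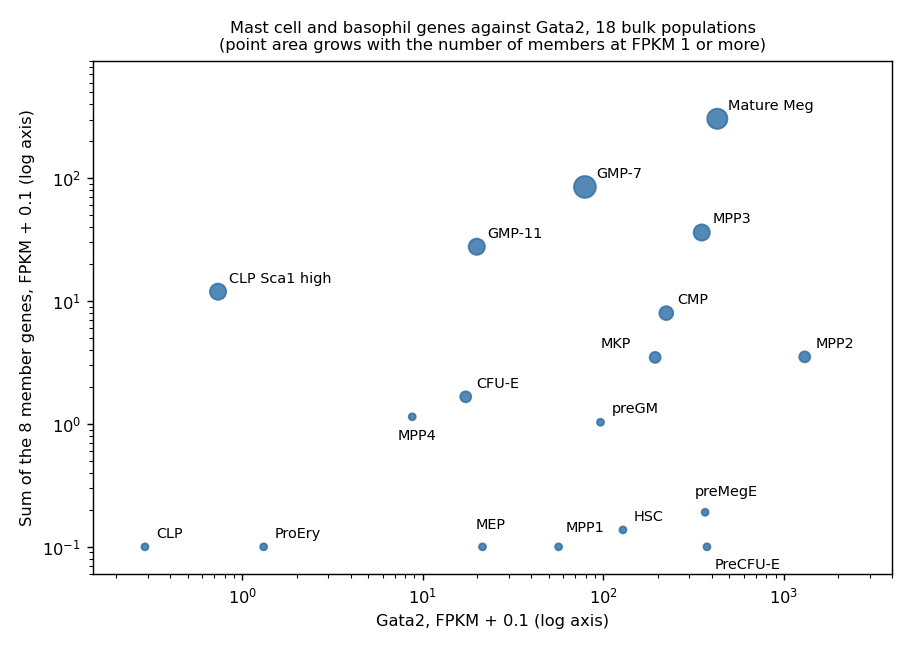
Summed FPKM of the 8 member genes (vertical, log axis, 0.1 added) against Gata2 FPKM (horizontal, log axis, 0.1 added), 1 point per bulk population, with a larger point for more detected members. PreCFU-E, preMegE and HSC lie far right and low, GMP-7 and GMP-11 lie above them at lower Gata2, and Mature Meg is high on both axes.

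For the members in the chymase and tryptase clusters, most neighbours on the chromosome were listed at 0. Mcpt8 and Gzmb lie in a protease cluster on chromosome 14 with mast cell chymases and granzymes: of its 15 measured genes, 11 were listed at 0 in all 18 libraries and 3 were detected, namely Mcpt8, Gzmb and Ctsg, the neutrophil protease cathepsin G that lies next to Mcpt8. Ctsg reached 313 FPKM in GMP-7 and 1.24 FPKM in Mature Meg, the reverse order of Mcpt8. Prss34 and Tpsb2 lie in a tryptase cluster on chromosome 17, where Prss34 was detected and the other 5 measured genes were listed at 0 in all libraries. The list of 8 mast proteases that mark mature mast cells (Cma1, Cma2, Mcpt1, Mcpt2, Mcpt4, Mcpt9, Tpsab1 and Tpsg1) had 0 detected genes in any library, and its highest value was 0.566 FPKM of the chymase Cma1 in MPP3.

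Other genes of the mast cell and basophil program were looked at by list. Of 13 genes of immunoglobulin E receptor signalling, 6 were detected in Mature Meg (8.71% of all genes) and 7 in GMP-7 (32.2%), against 3 in HSC (15.2%). The count was higher in gates with fewer members, at 10 in MPP2 (20.3%), MKP (22.4%) and CLP Sca1 high (19.2%) and 9 in CMP (30.6%). It was 8 in PreCFU-E (28.7%), where every member was listed at 0. The 3 with the widest range were Gab2, an adaptor downstream of the receptor, with 3129 FPKM in Mature Meg and at most 0.570 FPKM in GMP-7, MPP3 and GMP-11; Vav1, an exchange factor, with 529 FPKM in Mature Meg, 60.4 in GMP-7 and 0.666 in HSC; and Fyn, a kinase, with 1.00 FPKM in Mature Meg, 0.685 in GMP-7 and 0.642 in HSC, and its highest level in PreCFU-E. The common receptor gamma chain Fcer1g, named here after its values were seen, stood at 0.841 FPKM in Mature Meg, 0.703 in GMP-7 and 8.85 in CLP Sca1 high. It was listed at 0 in bulk HSC and bulk MPP1. Over the single cells used, Fcer1g averaged 72.8, 44.5 and 42.3 FPKM on HSC plates 1, 2 and 3. On MPP1 plates 1 and 2 it averaged 36.5 and 25.1 FPKM. A bulk value listed at 0, in HSC too, is therefore not read as absence, and the cause of this gap was not tested. Of 7 genes of lipid mediator synthesis, 3 were detected in Mature Meg and 4 in GMP-7, against 2 in HSC, and the other 15 gates had 0 to 3. Alox5, the enzyme that starts leukotriene synthesis, had 1353 FPKM in Mature Meg and 10.8 in GMP-7 and was listed at 0 in HSC, while Alox5ap, its partner protein, had 130 FPKM in Mature Meg, 35.2 in GMP-7, 366 in MPP3 and 368 in HSC.

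Of 9 genes for granule matrix and release, 6 were detected in Mature Meg (8.71% of all genes) and 8 in GMP-7 (32.2%), against 4 in HSC (15.2%). In PreCFU-E (28.7%) and ProEry (26.0%), where every member was listed at 0, 6 were also detected. Ndst2, which sulphates heparin in mast cell granules, had 405 FPKM in Mature Meg, 1.16 in GMP-7 and 0.249 in HSC. Srgn, the granule proteoglycan core, had the opposite order, with 3.75 FPKM in Mature Meg, 168 in GMP-7 and 468 in HSC. Of 12 surface and cytokine genes of mast cells and basophils, 0 were detected in Mature Meg, 1 in GMP-7, 2 in each of GMP-11, CLP Sca1 high and PreCFU-E, and 0 in HSC. Il1rl1, the receptor for interleukin 33, was highest in PreCFU-E with 11.9 FPKM, followed by CLP Sca1 high with 6.82 FPKM. The integrin Itgb7 had 9.36 FPKM in CLP Sca1 high, 2.47 in GMP-11 and 1.73 in PreCFU-E. Kit, the stem cell factor receptor of mast cells, had 0.0871 FPKM in Mature Meg, 131 in GMP-7 and 45.6 in HSC; by label Mature Meg was sorted as c-Kit- and GMP-7 as c-Kit+. Of 11 transcription factors of these lineages, 6 were detected in Mature Meg and 8 in GMP-7, against 4 in HSC, beside the shares of all genes just given. Among gates with no member detected, MPP4 had 9 (21.8% of all genes) and preMegE had 8 (19.2%). PreCFU-E (28.7%), preGM (22.0%) and ProEry (26.0%) had 7 each, and CMP with 2 members had 10 (30.6%). Mitf, a mast cell factor named after its values were seen, was listed at 0 in Mature Meg and stood at 2.58 FPKM in GMP-7.

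Markers of other cell types were present in gates with and without members. The counts below stand beside unlike shares of all genes: 8.71% in Mature Meg, 22.4% in MKP, 32.2% in GMP-7 and 29.8% in GMP-11. The share was 19.3% in MPP3, 30.6% in CMP, 22.0% in preGM, 21.8% in MPP4 and 19.2% in CLP Sca1 high. In Mature Meg 3 of 5 megakaryocyte markers were detected: Itga2b (CD41, the sort marker) with 44.9 FPKM, Vwf with 1.60 and Gp9 with 1.11, while Pf4 stood at 0.650 and Gp1bb at 0.0246. Their sum was 48.3 FPKM in Mature Meg, against 30.1 FPKM in HSC. The 7 neutrophil granule genes summed to 16.6 FPKM in Mature Meg with 4 detected, and 0 of 7 eosinophil, 0 of 4 macrophage and 0 of 9 cytotoxic lymphocyte markers were detected there. In MKP, where 1 member was detected, 4 of 5 megakaryocyte markers were detected with a sum of 163 FPKM, with 70.5 FPKM of Itga2b, 52.0 of Vwf and 39.4 of Pf4. In GMP-7 4 of 7 neutrophil granule genes were detected with a sum of 2558 FPKM, against 51.2 FPKM in HSC, led by Elane with 1055 and Mpo with 1004 FPKM; the late granule genes Ltf and S100a9 were listed at 0 there. The sum was 4447 FPKM in GMP-11, 706 in MKP, 438 in MPP3, 388 in CMP, 145 in preGM and 143 in MPP4, with 4 of 7 detected in each, and no member was detected in preGM or MPP4. Of 7 eosinophil markers 2 were detected in GMP-7, Prg2 with 17.8 and Epx with 6.21 FPKM, and both were at 0 in HSC. Of 9 cytotoxic lymphocyte genes, Nkg7 had 13.7 FPKM in GMP-7, and Gzma and Gzmc were listed at 0 in every library. In CLP Sca1 high all 4 plasmacytoid dendritic markers were detected, with Tcf4 at 153 and Irf8 at 75.6 FPKM and a sum of 247 FPKM, against 11.5 FPKM in HSC. The part of these cell types in the members' levels was not tested.

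**Figure D3:**
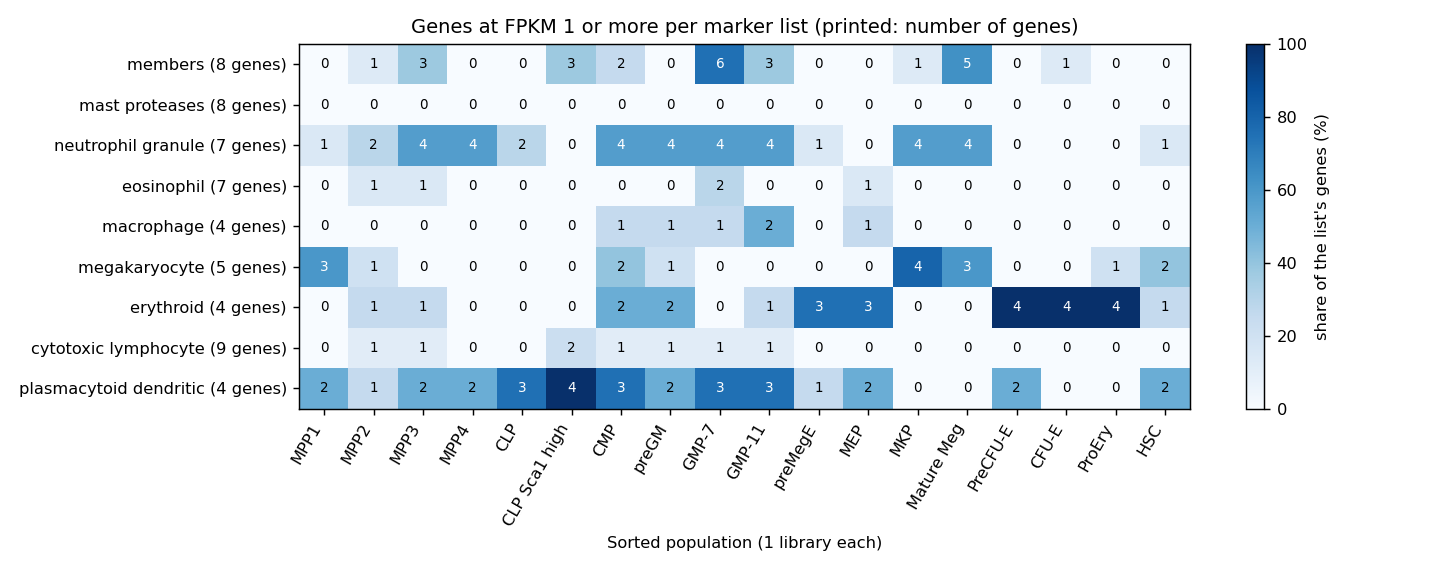
Number of genes at FPKM 1 or more (printed) and share of each list (colour, %) for the member genes and 8 marker lists (rows) in 18 bulk populations (columns, 1 library each, HSC at the right). The row of mast proteases is 0 throughout, 4 of 7 neutrophil granule genes are detected in MPP3, MPP4, CMP, preGM, GMP-7, GMP-11, MKP and Mature Meg, with 0 to 2 in the other gates, and CLP Sca1 high has all 4 plasmacytoid dendritic markers.

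The genes most like each member were sought among 7411 genes that reached FPKM 5 in some bulk population, by Pearson r of log2(FPKM + 1) over the 18 populations. For Cpa3 these were Hdc (r = 0.86), the chemokine Ccl9 (0.86) and 1200004M23Rik (0.85), and for Hdc they were Ccl9 (0.87), Cpa3 (0.86) and Gsr (0.85). For Mcpt8 they were Prss34 (0.92), Jazf1 (0.92) and Fbxw10 (0.91), and for Prss34 they were Mcpt8 (0.92), Alox5 (0.91) and Jazf1 (0.90). For Gzmb they were Adal (0.93), Slc36a4 (0.92) and Atp6v1g2 (0.89). Ms4a2 and Fcer1a did not reach FPKM 5 and were not compared in this way. The order depended on Mature Meg and on the measure: over the 17 populations without it, r of Hdc was 0.84 with Gzmb and 0.81 with Cpa3, and r of Mcpt8 was 0.85 with Ms4a2 and 0.79 with Prss34. By Spearman's rho over 18 populations, Mcpt8 had 0.83 with Cpa3 and 0.63 with Prss34. The r of Prss34 with Alox5 was 0.70 and with Jazf1 0.64 over the 17 populations without Mature Meg. Over the same 17, r of Cpa3 was 0.80 with Ccl9 and 0.78 with 1200004M23Rik. For Hdc it was 0.82 with Ccl9 and 0.82 with Gsr, and for Mcpt8 0.76 with Jazf1 and 0.84 with Fbxw10. The 3 r values of Gzmb stayed at 0.93, 0.92 and 0.89. Points share 1 library each, and the r values are descriptions.

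A well was used as a single cell where its label gave 1 cell and 1000 or more genes were detected in it. That left 373 cells out of 460 candidate wells: 50 from bled MPP1, 48 from bled HSC, 51 and 48 from MPP1 plates 1 and 2, and 50, 53 and 73 from HSC plates 1, 2 and 3. Plate medians were 1969 to 3046.5 genes per cell. A further 150 wells were labelled with no cell, with a median of 471 genes, against 2394 in the cells used. No minimum number of genes was set for these wells, and 20 of the 150 held 1000 genes or more: 7 on HSC plate 1, 6 and 4 on MPP1 plates 1 and 2, and 3 on the bled MPP1 plate. All 108 index pairs occurred on more than 1 plate, and no well held the same values as another. Intervals are exact (Clopper-Pearson, 95%) and, like the limit that a count of 0 allows (3 wells), cover counting error only.

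The members were rare in these stem and precursor cells. At least 1 member was detected in 9 of 373 cells, or 2.41% (1.11 to 4.53%), against 5 of 150 wells with no cell, or 3.33% (1.09 to 7.61%). The intervals of both shares overlap, so a higher share in cells than in wells labelled with no cell was not shown. With the same minimum of 1000 genes for both, chosen after seeing the data, the share in cells stood beside 2 of 20 wells with no cell, or 10.0% (1.23 to 31.7%), and with no minimum for either it was 10 of 460 wells with 1 cell, or 2.17% (1.05 to 3.96%), beside 3.33%. Of all genes, 62.7% of 21664 were detected in at least 1 of the 373 cells, and 4 of 8 members were: Cpa3, Hdc, Gzmb and Fcer1a. Prss34, Mcpt8, Ms4a2 and Tpsb2 were listed at 0 in all 672 wells, and 0 of 373 cells allows a share of up to 0.804%.

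Cpa3 was found in 7 of the 373 cells. On the bled MPP1 plate 1 of 50 cells had it, at 40.5 FPKM. On MPP1 plate 1 it was in 2 of 51 cells, at 46.3 and 9.23 FPKM, and on MPP1 plate 2 in 3 of 48 cells, at 132, 70.6 and 32.6 FPKM. The bled HSC plate had 0 of 48 cells, HSC plates 1 and 2 had 0 of 50 and 0 of 53 cells, and HSC plate 3 had 1 of 73 cells, at 15.9 FPKM. Wells with no cell had Cpa3 in 1 of 28 on MPP1 plate 1, at 3.29 FPKM, in 1 of 13 on MPP1 plate 2, at 24.8 FPKM, and in 0 of 109 elsewhere. Both the cells and the no-cell wells with Cpa3 thus lay mostly on the MPP1 plates, and both of these 2 wells labelled with no cell held more than 1000 genes. That on MPP1 plate 1 held 1415 genes, against a median of 2535 in the cells used from its plate, of which 9.80% had fewer. That on MPP1 plate 2 held 4384 genes, more than any cell used from its plate, with Gata2 at 122, Fcer1g at 230 and Kit at 18.8 FPKM.

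The share of cells with Cpa3 averaged 5.09 ± 1.65% on the MPP1 plates and 0 ± 0% on HSC plates 1 and 2 (SD, n = 2 plates each), and 5.05% of MPP1 cells stood beside 4.88% of the no-cell wells of the same plates. The difference was 5.09 percentage points, with a two-sided exact permutation p of 0.333, the smallest that 2 against 2 plates allow. With HSC plate 3 added the difference was 4.63 percentage points and the exact permutation p was 0.2, again the smallest that the plates allow. Neither test could pass 0.05, so they do not say whether the share of cells with Cpa3 differs between MPP1 and HSC.

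**Figure D4:**
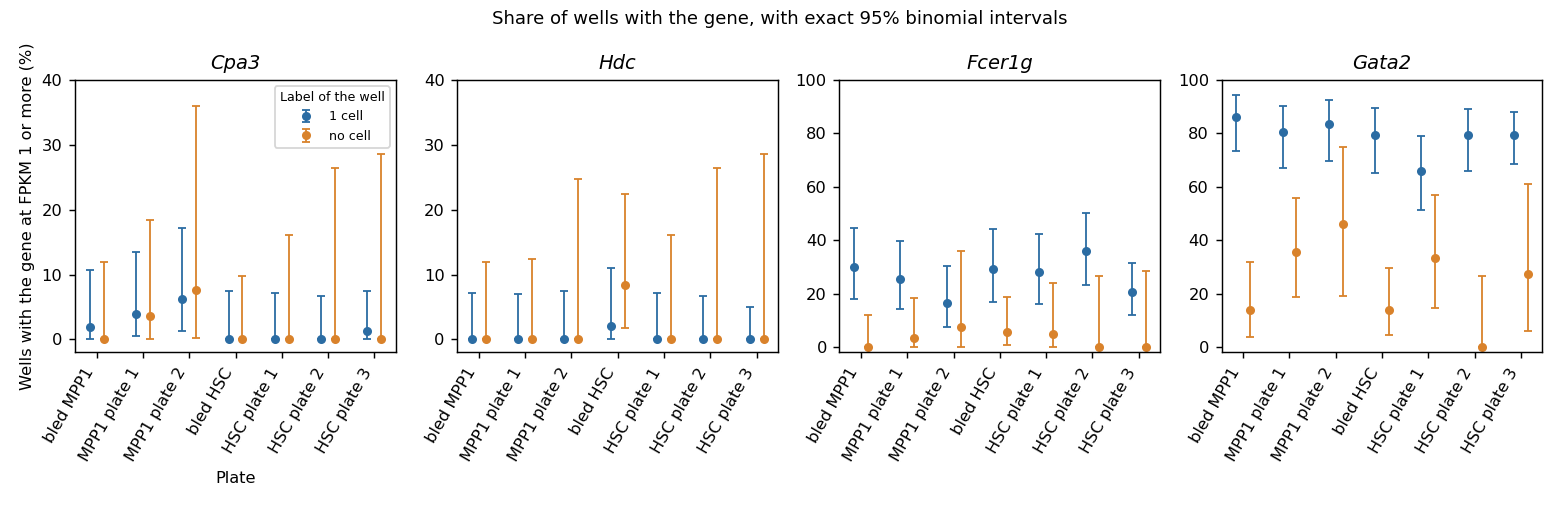
Share of wells (vertical, %) with Cpa3, Hdc, Fcer1g or Gata2 at FPKM 1 or more on each of 7 plates (horizontal), for wells with 1 cell and at least 1000 genes (blue) and wells with no cell and no minimum of genes (orange), with exact 95% binomial intervals. The Cpa3 and Hdc intervals of cells and no-cell wells overlap on every plate. The share with Gata2 is higher in cells than in no-cell wells on all 7 plates, but its intervals overlap on HSC plate 1 and MPP1 plate 2.

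Plate means were taken over the same cells as the shares, so they are not separate support for a difference. Cpa3 was listed at 0 in bulk MPP1. In single cells it averaged 1.09 and 4.91 FPKM on MPP1 plates 1 and 2, against 0 on HSC plates 1 and 2. With limma on log2(plate mean FPKM + 1), MPP1 minus HSC was 1.81 (SE 0.99), with a limma adjusted p of 0.780 over 9833 genes. In that comparison 1 gene, 0.0102% of those tested, passed an adjusted p of 0.05, the small nucleolar RNA Snora30, which was 8.59 higher in MPP1. It is named here after its value was seen, and 0 genes passed with any 1 of the 4 plates left out. Cpa3 was the only member that passed the filter of a mean of FPKM 1. Gata2 averaged 99.5 and 102 FPKM on the MPP1 plates against 65.3 and 39.1 FPKM on the HSC plates, a difference of 0.98 (SE 0.49) with a limma adjusted p of 0.752.

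For bleeding, 6 plates were fitted, with a term for MPP1 or HSC. Cpa3 averaged 0.810 FPKM on the bled MPP1 plate against 1.09 and 4.91 FPKM on the normal MPP1 plates. In HSC it was listed at 0 on the plate from bled mice and on normal plates 1 and 2, the HSC plates of this fit. On HSC plate 3, which was not in the fit, Cpa3 averaged 0.218 FPKM. Bled minus normal was -0.48 (SE 0.80), with a limma adjusted p of 0.963 over 10017 genes, of which 0% were called. At an unadjusted limma p under 0.05, 340 genes (3.39%) were higher and 246 (2.46%) lower. The difference between the bleeding effects of MPP1 and of HSC was -0.96 for Cpa3 (SE 1.28, limma adjusted p 0.981). The bled plates stand in a table of their own with 1 plate per cell type, so bleeding, table and plate cannot be told apart.

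The other detections were single cells. Fcer1a was in 1 of 50 bled MPP1 cells, at 7.76 FPKM, and in no other well. Gzmb was in 1 of 51 cells of MPP1 plate 1, at 92.9 FPKM, the cell that also had 9.23 FPKM of Cpa3; it was the only cell of 373 with more than 1 member, and had 4287 genes, more than 98.0% of its plate's cells. Hdc was in 1 of 48 bled HSC cells, at 135 FPKM, and in 3 of 36 wells with no cell on the same plate, at 420, 382 and 1.32 FPKM. The 9 cells with a member had a median of 3723 genes, against 2387 in the 364 cells without one. Gata2 was detected in 8 of the 9, or 88.9%, against 78.8% of the 364. Fcer1g was in 0 of the 9, against 26.9% of the 364, so none of the 373 cells held a member together with the receptor gamma chain. The limit that a count of 0 allows, 3 of 9 cells, lies above 26.9%, so a lower share is not shown. A well labelled with no cell, on MPP1 plate 2, held both Cpa3 (24.8 FPKM) and Fcer1g (230 FPKM).

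Genes of the same lists differed widely in how many cells held them. The cells had at least 1000 genes each, while no minimum was set for the wells with no cell, so the shares below differ in that threshold. Gata2 was detected in 295 of 373 cells (79.1%) against 35 of 150 wells with no cell (23.3%), Kit in 85.0% against 36.7%, Srgn in 96.8% against 58.7%, and Fcer1g in 26.3% against 3.33%. Gata1 was in 8.31% against 4.67%, Mitf in 5.36% against 1.33%, the myeloid factor Cebpa in 0.804% against 0 of 150, and the neutrophil gene Mpo in 1 of 373 cells against 0 of 150. No gene of the lists for immunoglobulin E receptor signalling (13 tested), granule matrix and release (9 tested), lipid mediators (4 tested in MPP1 minus HSC, 5 in bled minus normal) or surface and cytokines (2 and 3 tested) passed the limma threshold in either comparison. The smallest p among them in MPP1 minus HSC was that of Ptgs1, a prostaglandin enzyme, with -0.97 (SE 0.58, limma adjusted p 0.810), and in bled minus normal that of Itgb7, with 2.25 (SE 0.80, limma adjusted p 0.797). None of the 8 mast proteases reached the filter.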

How the data were processed

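Single cells were amplified by Smart-seq and the bulk libraries by the PMA protocol, per the labels' protocols. The authors deposited FPKM per gene and well or library. Per the submitters' processing notes, TopHat 1.3.3 and Cufflinks 1.2.1 were used with mm9, as was Bowtie2 2.2.1 for HSC plate 3. FPKM is relative to its own library's total, which ranged from 112384 to 358246 in bulk. Read depth is unknown: the best step held 40.0 to 51.1% of low values, so whole reads were not recovered. The normal plates 1 and 2, the bled plates and HSC plate 3 stand in separate tables. A repeat run of HSC plate 1 (96 samples) shares its wells, so the columns of HSC plate 1 could hold either run.

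The plate was the replicate. The labels number plates as biological replicates; nothing says that wells of a plate come from separate mice, so p-values measure the spread between plates. log2(plate mean FPKM + 1), where genes averaged FPKM 1 or more over plates, was tested with limma 3.58.1 (R 4.3.3, trend, Benjamini-Hochberg, threshold 0.05, two-sided) and checked on simulated data. Shares of cells were tested by an exact permutation over plates. Alternatives were a pseudocount of 0.1, no filter, means of log2 values, rescaling, at least 2000 genes, other FPKM minimums, HSC plate 3 added, a replicate block and leaving out plates; the counts without Mature Meg or GMP-7 and the gene minimums for shares of wells with any member were added after seeing the data.

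Members, lists and tests were chosen with earlier results of these data known. Named were all members, Gata2, the 3 genes most like each member that reached FPKM 5, up to 3 genes per list of widest bulk range and up to 3 list genes by smallest p. The exceptions are genes that the text says were named after their values were seen, and lists given whole. For some lists fewer genes are named than the planned 3 of widest range. Promoters came from RefSeq on GRCm38.p6, used for sequence, names and gene order and not joined to mm9 coordinates. Symbols of the tables were matched by RefSeq synonym where needed; Hba-a1 was not matched.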

Additional observations from a re-analysis of the deposited data

Results flagged for a closer look

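Cpa3 and Hdc appeared in wells that the labels give as holding no cell, which enter no comparison between groups. Hdc was in 1 of 48 cells of the bled HSC plate, or 2.08%. It was in 3 of 36 wells with no cell there, or 8.33% (1.75 to 22.5%). The other plates had 0 of 114 such wells, which allows up to 2.63%, a limit inside that interval. The 3 wells held 418, 619 and 401 genes at FPKM 1, with Hdc at 382, 1.32 and 420 FPKM, and Gata2 was listed at 0 in all 3. Cpa3 was in 5 of 99 cells of the MPP1 plates, or 5.05%, and in 2 of 41 wells with no cell there, or 4.88%. The intervals were 0.0904 to 18.3% on MPP1 plate 1 (1 of 28 wells) and 0.195 to 36.0% on MPP1 plate 2 (1 of 13). The other plates had 0 of 109 such wells, which allows up to 2.75%, a limit inside both intervals. The 2 wells with Cpa3 held 1415 and 4384 genes, and both had Gata2, at 5.39 and 122 FPKM. The plates were singled out after the wells with Hdc or Cpa3 were seen, so setting them against the other plates is no test. Where the transcripts in these wells came from was not tested.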

How the results depend on the processing

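Cpa3 had no limma adjusted p under 0.05 in any alternative. For MPP1 minus HSC its log2 difference lay between 0.28 (means of log2 values) and 4.61 (pseudocount 0.1), with limma adjusted p of 0.546 to 0.928, and between 1.81 and 2.56 with 1 plate left out. For bled minus normal it lay between -0.96 and 0, both with 1 plate left out (limma adjusted p 0.877 to 1). Without MPP1 plate 2 Cpa3 fell below the filter and was not tested. The share difference lay between 3.92 and 6.62 percentage points, and between 3.92 and 6.25 with 1 plate left out.

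Counts of called genes moved more. For MPP1 minus HSC, 1 gene was called as reported, 0 with no filter, 38 with means of log2 values, 6 after rescaling and 0 without any 1 of the 4 plates. With replicate number as a block 58 genes were called, and the exact permutation p for the Cpa3 share was 0.5; deviations of same-numbered plates had a correlation of 0.04 over 9833 genes with 2 pairs, so the numbers are not taken as pairs. For bled minus normal, 0 genes were called, 6 with means of log2 values, and 0 to 1 with 1 plate left out (1 without MPP1 plate 2, 1 without the bled HSC plate). The cause was not tested.

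Detected pairs in bulk numbered 13 at FPKM 5 (9.03%, against 12.3% of all pairs) and 42 at FPKM 0.1 (29.2%, against 35.9%), beside 25 as reported. Pairs above bulk HSC numbered 31 with a pseudocount of 0.1, 28 after rescaling and 25 at a log2 difference of 1 (18.4%, against 15.5% of all pairs), beside 15 as reported. The share of wells with no cell that had a member was 10.0% at 1000 genes or more, chosen after seeing the data, beside 3.33%. Of 42 alternatives for single members in Mature Meg, GMP-7 and MPP3, 34 stayed on their side of a log2 difference of 2, 8 passed it and 0 reversed. This is no check of the direction. All members but Cpa3 were listed at 0 in bulk HSC, so for them no setting could reverse or shrink a difference. Gzmb in Mature Meg and Fcer1a in GMP-7 and in MPP3 were at 0 in both libraries and count among the 34. With 1 library per gate and unknown depth, bulk order has no error.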

Other observations

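On HSC plate 3, 1 well that was labelled with 1 cell had Gzmb at 1484 FPKM. It held 92 genes at FPKM 1, under the minimum of 1000, and is in no comparison. Of the 62 wells labelled with 2 or more cells, 1 had a member: a well with 2 cells on MPP1 plate 1, with Cpa3 at 94.8 FPKM and 2289 genes. No well with more than 1 cell had Hdc, Gzmb or Fcer1a at FPKM 1.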
